A study of Mus musculus with 18 samples.

Results

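The 10 genes described here encode the chains of the classical major histocompatibility complex (MHC) class I molecule, the machinery that cuts and loads its peptides, and the transactivator of these genes. They are H2-K1, H2-D1, B2m, Tap1, Tap2, Tapbp, Psmb8, Psmb9, Psmb10 and Nlrc5, and they were found by gene symbol among the 30072 genes of the deposited count and abundance tables. All 10 passed the filter on low values. RNA was sequenced from the hearts of 18 CD-1 mice, with 6 mice in each of 3 groups. By the study's methods, the ctrl mice were anesthetized and imaged by computed tomography (CT) and were given no treatment dose. The 2wk and 6wk mice received 1 dose of 25 Gy to the heart under isoflurane anesthesia, after CT imaging, and were sampled 2 weeks and 6 weeks later. All mice were male and female littermates of an outbred stock, aged at least 8 weeks. The labels name the septum as the tissue, untreated mice as controls and gamma rays as the radiation, whereas the study's methods name ventricle, sham mice and X-rays.

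MHC class I molecules carry peptides from inside the cell to its surface, where CD8 T cells and natural killer (NK) cells read them. The immunoproteasome cuts cytosolic proteins into peptides, the TAP transporter moves these into the endoplasmic reticulum, and tapasin holds the transporter beside the heavy chain and its partner beta-2-microglobulin while a peptide is loaded. Interferons raise most of these genes through STAT and IRF factors, and NLRC5 acts on class I promoters. In the healthy heart, cardiomyocytes carry little class I, and endothelial and immune cells carry more.

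The promoters of 2 of these genes are shown because they hold the letters that interferon-responsive and NLRC5-dependent promoters are known for. The sequences are those of RefSeq on GRCm38.p6 and end at the base before the gene start, which for H2-K1 (minus strand) is chr17:34000348-34000547 and for B2m (plus strand) is chr2:122147537-122147685. Capitals mark matches to an IRF core (AANNGAAA), an NF-kappaB site (GGGGATTCC), the CRE-like letters TGACG and a CCAAT box (written ATTGG), on either strand.
H2-K1: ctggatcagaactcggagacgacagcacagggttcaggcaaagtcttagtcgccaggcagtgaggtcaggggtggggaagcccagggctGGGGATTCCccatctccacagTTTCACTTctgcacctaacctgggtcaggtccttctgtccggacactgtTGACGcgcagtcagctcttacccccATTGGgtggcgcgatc
B2m: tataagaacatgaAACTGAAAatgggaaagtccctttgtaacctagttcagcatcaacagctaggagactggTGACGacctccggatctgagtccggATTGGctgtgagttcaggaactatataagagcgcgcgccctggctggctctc

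Both promoters held an IRF core, followed by the CRE-like letters and a CCAAT box nearer to the start, and H2-K1 also held the NF-kappaB letters. The H2-D1 promoter held the same 4 motifs, and the longest run of letters it shared with H2-K1 was 47 bases. Of 32851 promoters searched over 250 bases before the start, the IRF core was in 21.3%, the NF-kappaB letters in 0.213%, TGACG in 17.8% and the CCAAT box in 33.8%. Promoters were found for 8 of the 10 genes. Tap1 and Psmb9 start 225 bases apart on opposite strands, and the stretch between them held 1 CRE-like and 1 CCAAT match and no IRF core. Psmb8 alone among the 8 held a GAS motif (TTCNNNGAA, in 7.02% of promoters), Tapbp held 2 CCAAT matches and Psmb10 held none of the 5 motifs. Motifs were chosen with the sequences in view, no matches of different motifs overlapped, and a match of letters is a description and not a binding site.

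Of the 10 genes, 7 lie on chromosome 17, within the MHC, and 3 lie elsewhere (GRCm38, GENCODE M21). H2-K1 (ENSMUSG00000061232) spans chr17:33996017-34000347, Tapbp (ENSMUSG00000024308) chr17:33915899-33929292 and H2-D1 (ENSMUSG00000073411) chr17:35262730-35267499. Psmb9 (ENSMUSG00000096727), Tap1 (ENSMUSG00000037321), Psmb8 (ENSMUSG00000024338) and Tap2 (ENSMUSG00000024339) sit side by side in 34335 bases, and Psmb9 and Tap1 overlap over 212 bases. B2m (ENSMUSG00000060802) spans chr2:122147686-122153083, inside Patl2 on the other strand. Psmb10 (ENSMUSG00000031897) spans chr8:105935735-105938444 and Nlrc5 (ENSMUSG00000074151) chr8:94434356-94527272. Whether strand was used in counting is not given in the sources used here, so reads of overlapping partners could not be told apart.

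Total estimated counts ranged from 11522987 to 15501019 per mouse, and a floor of 3 counts was 0.194 to 0.26 CPM (counts scaled to a library of 1e6 counts), which covers counting error only. Factors of the trimmed mean of M-values (TMM), by which library sizes were scaled, ranged from 0.844 to 0.991 in ctrl and from 1.04 to 1.13 in 6wk mice and did not overlap (exact two-sided permutation test, P = 0.00216, adjusted over 9 such tests 0.00974). The mitochondrial share of counts also moved with the groups, at 19.8% to 25.0% in ctrl, 17.8% to 20.6% in 2wk and 16.5% to 20.1% in 6wk mice (exact two-sided permutation tests, adjusted P against ctrl 0.0195 and 0.00974). Removing mitochondrially encoded genes from the fit left the number of genes called higher at 6 weeks, given below, at 7 of 10. Any further part of this share in the results was not tested. Y-linked genes were expressed in 3 mice of each group. The sum of 6 cardiomyocyte markers was 22283 to 42107 CPM in every mouse, a level that cannot tell septum from other ventricular muscle. The class I heavy chain genes set some libraries apart. Among the transcripts of GENCODE M21, 22.8% of the 31-base words of H2-K1 and 26.7% of those of H2-D1 also occurred in other genes, against none for B2m, Psmb9, Psmb10 and Nlrc5. The release that the study used may list other transcripts. These mice are outbred and the reference carries a single haplotype, so the level of a heavy chain gene and its match to the reference cannot be told apart.

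The first question was whether these genes differed from controls after irradiation. At 6 weeks, 7 of the 10 rose: Psmb8, B2m, Tap1, Psmb10, Tapbp, H2-D1 and Nlrc5 (edgeR's quasi-likelihood test with Benjamini-Hochberg adjustment over 15054 genes, adjusted P under 0.05). Among all genes tested, 13.5% were called higher in that comparison. None of the 10 was called lower, against 11.5% of all genes. With the study's further threshold of a log2 fold change above 1, 5 of 10 were called, against 5.27% of all genes. The median log2 fold change of the 10 genes was 0.90, against -0.02 over all genes tested. All 3 genes outside chromosome 17 and 4 of the 7 on it were called. The groups did not overlap for B2m alone, against 5.8% of all genes. Bulk RNA cannot tell more transcript per cell from more cells of a type that carries it.

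At 2 weeks, none of the 10 was called, against 3.09% of all genes called higher and 1.93% called lower, although every one had a positive log2 fold change, from 0.18 to 1.71 with a median of 0.65 (0.00 over all genes). At an unadjusted P under 0.05, 4 of the 10 were higher by edgeR's quasi-likelihood test, namely H2-K1, Psmb8, Tap1 and B2m, against 10.6% of all genes. DESeq2 and limma voom also called none. Every group pair overlapped, whereas 1.96% of all genes had 2wk mice that were all above controls. Between 2 and 6 weeks, none was called either by any of these tools, against 3.31% of all genes called higher at 6 weeks and 2.01% called lower, and unadjusted P values under 0.05 were found for Psmb8 and Psmb10 (higher, 2 of 10 against 11.3% of all genes) and H2-K1 (lower, 1 of 10 against 10%). Comparisons with controls share the same 6 control mice, so the values at 2 and 6 weeks are not independent of each other.

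**Figure D1:**
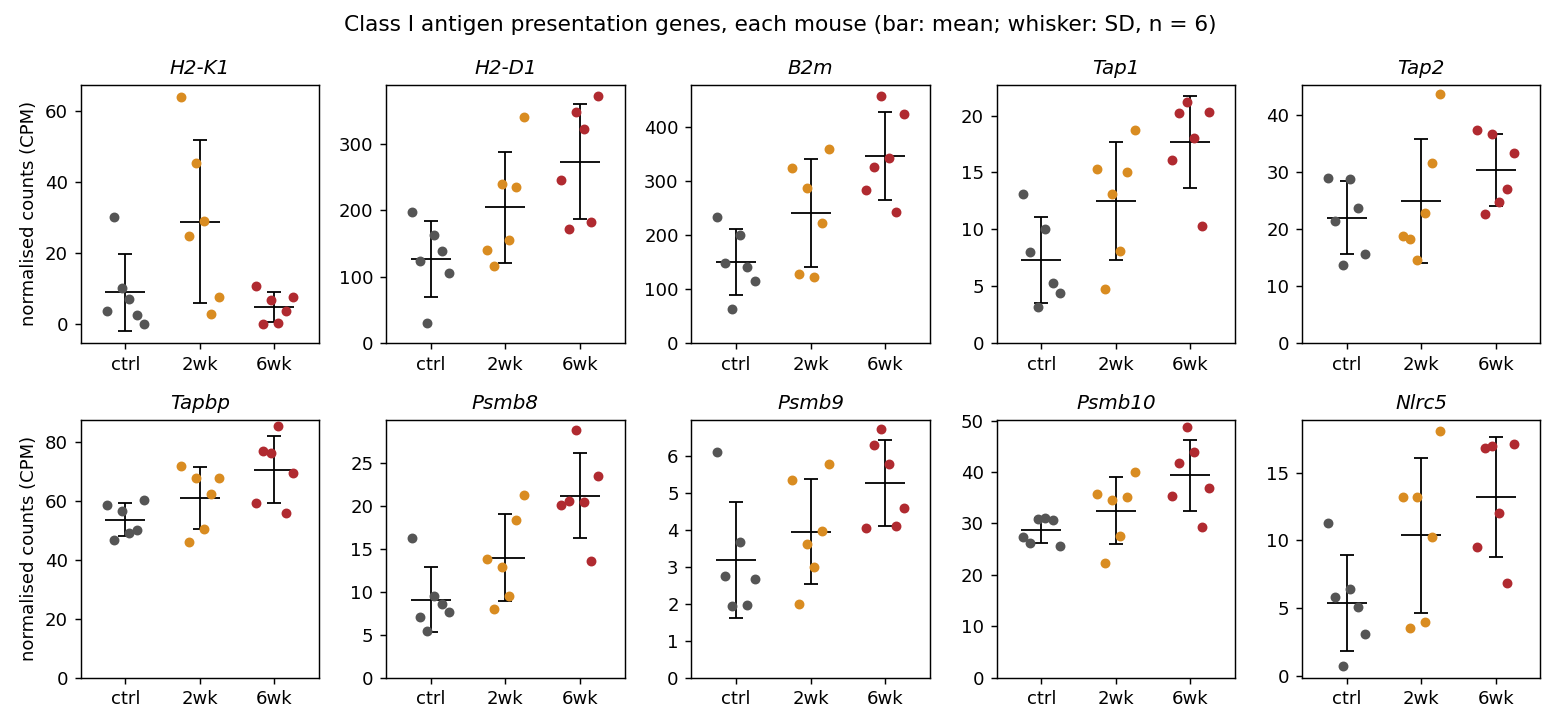
Normalised read count (CPM, linear axes) of the 10 genes in each of 18 mice, by group (6 mice each); points are mice in order of replicate number, the horizontal bar is the mean and the whisker the SD. For B2m all 6wk mice lie above all controls, whereas H2-K1 has its highest values in the 2wk group and values at or near 0 in 1 ctrl mouse and in mice 2 and 4 of the 6wk group.

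B2m, the light chain that every class I molecule shares, had 61.9 CPM in the lowest control, a median of 144 and a highest value of 234. The 2wk mice had 123 to 359 CPM with a median of 255, and the 6wk mice 243 to 458 with a median of 334. The highest control stayed below the lowest 6wk mouse, whereas the 2wk mice overlapped both other groups. B2m rose at 6 weeks by 1.21 on the log2 scale (SE 0.296, adjusted P = 0.00557), whereas the 2wk difference of 0.68 (SE 0.294, adjusted P = 0.193) did not pass.

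H2-D1, a classical heavy chain, had 30.3 to 198 CPM in controls with a median of 131, 115 to 341 at 2 weeks with a median of 195, and 172 to 372 at 6 weeks with a median of 284. Control 3 stood far below the other controls, the next of which had 105 CPM, and 4 of 6 mice at 6 weeks were above every control. H2-D1 rose at 6 weeks by 1.12 on the log2 scale (SE 0.338, adjusted P = 0.0209). Without control 3 it was 0.92 and without any other single mouse between that value and 1.29, with the call kept each time (adjusted P 0.0118 to 0.0497). At 2 weeks it was 0.69 (SE 0.336, adjusted P = 0.254).

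H2-K1, the other classical heavy chain, had the largest coefficient of variation of the 10 genes in every group (122%, 79.8% and 86.7% in ctrl, 2wk and 6wk). Its controls had 0 to 30 CPM with a median of 5.36, the 2wk mice 2.79 to 63.9 with a median of 26.8, and the 6wk mice 0.139 to 10.6 with a median of 5.30. As estimated counts, control 6 had 0, mice 2 and 4 of the 6wk group had 2 and 4, and the other 15 mice had 35 to 871. These 3 mice with almost no H2-K1 counts had 1218 to 4347 H2-D1 counts. The log2 fold change was 1.71 (SE 0.779, adjusted P = 0.222) at 2 weeks, -0.84 (SE 0.86, adjusted P = 0.526) at 6 weeks and -2.55 (SE 0.82, adjusted P = 0.0764) from 2 to 6 weeks, so none passed. Control 2, with 360 counts, decided the direction at 6 weeks, since the log2 fold change was 0.08 without it.

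The counts of further class I heavy chain genes also split the mice, with mice of every group on both sides. H2-T22, a nonclassical heavy chain gene, had 0 to 9 counts in 11 mice and 81 to 374 in the other 7. The widest gap in H2-T23 (45 against 118 counts) and in H2-T24 (26 against 53) divided the same 11 and 7 mice. The 7 were control 3, mice 1, 2 and 3 of the 2wk group and mice 2, 5 and 6 of the 6wk group. In control 3, the H2-D1 count of 327 was the lowest of all mice, and H2-Q6 and H2-Q7 had 4 and 11.3 counts, against at least 63 and 65.7 in every other mouse. The part that differences in sequence from the reference play in these counts was not tested.

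**Figure D2:**
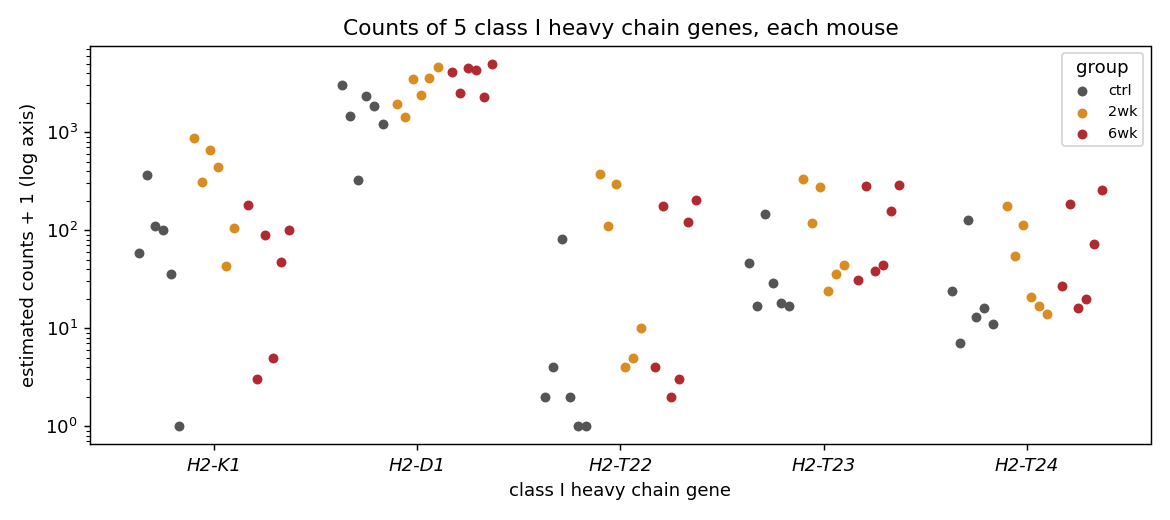
Estimated counts plus 1 (log axis) of 5 class I heavy chain genes in each of 18 mice, coloured by group and in order of replicate number. H2-T22 has 7 mice at 81 to 374 counts and 11 at 0 to 9, drawn from all 3 groups, and H2-K1 has 3 mice at 0 to 4 counts.

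Tap1, the first subunit of the peptide transporter, had 3.15 to 13.1 CPM in controls with a median of 6.65, 4.73 to 18.8 at 2 weeks with a median of 14.1, and 10.3 to 21.2 at 6 weeks with a median of 19.1. At 6 weeks, 5 of 6 mice were above every control, and mouse 5 was below control 1. Tap1 rose by 1.25 on the log2 scale by 6 weeks (SE 0.317, adjusted P = 0.00711), and its 2wk difference was 0.75 (SE 0.321, adjusted P = 0.193). Tap2, the other subunit, had 13.6 to 28.9 CPM in controls (median 22.5), 14.6 to 43.7 at 2 weeks (median 20.8) and 22.6 to 37.4 at 6 weeks (median 30.1). The groups of Tap2 overlapped, and its log2 fold change of 0.45 at 6 weeks (SE 0.242, adjusted P = 0.188) did not pass. With library size only it was 0.71 and passed (adjusted P = 0.0352), as it did in both fits to TPM.

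Tapbp encodes tapasin, which bridges the transporter and the class I molecule. It had 46.7 to 60.4 CPM in controls (median 53.5), 46.0 to 72.1 at 2 weeks (median 65.0) and 55.9 to 85.7 at 6 weeks (median 73.0). Its controls were close together and 4 of 6 mice at 6 weeks lay above all of them. The log2 fold change was 0.40 (SE 0.119, adjusted P = 0.0201), a rise to 1.32 times the control level and the smallest of the 7.

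The 3 catalytic subunits of the immunoproteasome differed in size of change. Psmb8 had 5.37 to 16.2 CPM in controls with a median of 8.11, 8.02 to 21.2 at 2 weeks with a median of 13.3, and 13.6 to 28.8 at 6 weeks with a median of 20.5. Control 1, at 16.2, was the only control above any 6wk mouse. Psmb8 rose at 6 weeks by 1.21 on the log2 scale (SE 0.254, adjusted P = 0.00186), which was the smallest adjusted P of the 10 genes, and the adjusted P ranged from 0.000277 to 0.0056 when each mouse was left out. At 2 weeks it was 0.61 (SE 0.258, adjusted P = 0.186), and without control 1 it was 0.87 and passed (adjusted P = 0.0416).

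Psmb10 had 25.6 to 31 CPM in controls (median 29.1), 22.2 to 40.0 at 2 weeks (median 34.8) and 29.3 to 48.9 at 6 weeks (median 39.4). At 6 weeks 5 of 6 mice were above every control, and the log2 fold change was 0.46 (SE 0.13, adjusted P = 0.0143). Psmb9, the lowest of the 3 in CPM, had 1.94 to 6.12 CPM in controls (median 2.71), 2.01 to 5.79 at 2 weeks (median 3.80) and 4.06 to 6.74 at 6 weeks (median 5.19). All 6wk mice were above the control median and only 2 were above control 1. Its log2 fold change of 0.68 (SE 0.274, adjusted P = 0.0765) did not pass, and without control 1 it was 1.0 and passed (adjusted P = 0.00717). Psmb9 was also called by DESeq2 (adjusted P = 0.0474), by limma voom (adjusted P = 0.0441), with library size only and in both fits to TPM.

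Nlrc5, the transactivator of class I genes, had 0.74 to 11.3 CPM in controls with a median of 5.45, 3.53 to 18 at 2 weeks with a median of 11.7, and 6.84 to 17.1 at 6 weeks with a median of 14.4. At 6 weeks 4 of 6 mice were above every control, and mouse 5 of that group was the lowest. Against controls this was a rise of 1.25 on the log2 scale (SE 0.428, adjusted P = 0.0396), and the value for 2wk mice was 0.90 (SE 0.433, adjusted P = 0.248). The call at 6 weeks was the least stable of the 7. It was lost without any 1 of control 2, 3, 5 or 6 or of 6wk mouse 2, 3 or 6, where the log2 fold change was 1.04 to 1.27 and the adjusted P reached 0.0821.

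**Figure D3:**
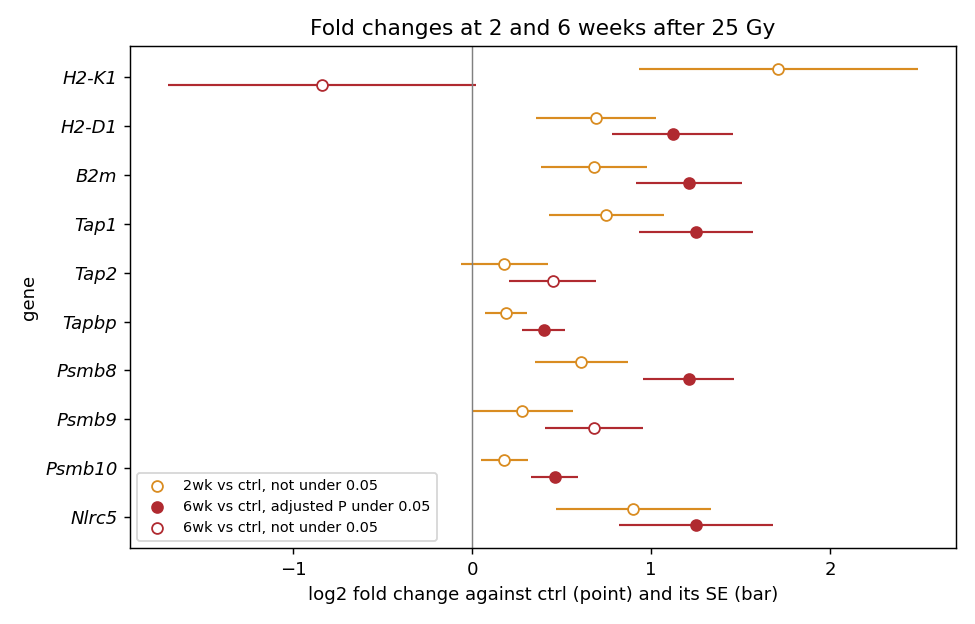
Log2 fold change against the 6 controls at 2 weeks (orange) and 6 weeks (red) for each gene, with its SE as a bar, from edgeR's quasi-likelihood fit to all 18 mice; filled points have an adjusted P under 0.05. The 7 filled points are all at 6 weeks, from 0.40 (Tapbp) to 1.25 (Tap1 and Nlrc5), and no 2wk value is filled.

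Levels of different genes were compared per length, in TPM (transcript abundance per length, scaled to the same sum in each mouse). In controls the order of mean TPM was B2m (277 ± 137, SD, n = 6), H2-D1 (75.1 ± 41.5), Psmb10 (23.3 ± 3.37), Tapbp (22.5 ± 3.5), Psmb8 (11.5 ± 6.36), Tap2 (8.16 ± 2.94), H2-K1 (5.87 ± 6.65), Psmb9 (4.36 ± 2.8), Tap1 (2.27 ± 1.4) and Nlrc5 (1.17 ± 1.11). The ranges of all neighbours in this order overlapped between mice, although within each control mouse B2m was above H2-D1, Tapbp above Psmb8, Psmb9 above Tap1 and Tap1 above Nlrc5. At 6 weeks the ranges of B2m (842 ± 233) and H2-D1 (192 ± 73.9), of H2-D1 and Psmb10 (41.8 ± 7.92), and of Psmb8 (34.4 ± 8.82) and Tap2 (13.5 ± 3.48) did not overlap. H2-K1 moved from the seventh place in controls to the fifth at 2 weeks and the last at 6 weeks, with a spread as large as its mean in controls.

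The next question was whether immunoproteasome subunits moved against the constitutive subunits whose place they take, with the ratio of TPM taken within each mouse so that no scaling between mice entered. For Psmb8 over Psmb5 the ratio was 0.0822 to 0.371 in controls (median 0.144), 0.138 to 0.446 at 2 weeks (median 0.269) and 0.319 to 0.634 at 6 weeks (median 0.451). Only control 1 reached the 6wk range. The mean log2 ratio was 1.54 higher at 6 weeks than in controls (exact two-sided permutation test, P = 0.00649, adjusted over 18 tests 0.039). For Psmb10 over Psmb7 it was 0.193 to 0.291 in controls and 0.33 to 0.51 at 6 weeks, groups that did not overlap, and the log2 ratio was 0.68 higher (exact permutation test, P = 0.00216, the smallest that 6 against 6 mice can give, adjusted 0.039).

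For Psmb9 over Psmb6 the control ratio was 0.0139 to 0.0624 and the 6wk ratio 0.0385 to 0.0792, and the log2 ratio was 1.05 higher at 6 weeks (exact permutation test, P = 0.0195, adjusted 0.0536). Between 2 and 6 weeks it was 0.76 higher (exact permutation test, P = 0.0108, adjusted 0.0487). None of the 6 ratios passed at 2 weeks against controls (exact permutation tests, smallest P 0.0649, adjusted 0.13). The denominators moved little. On the CPM scale Psmb5 fell by 0.23 (SE 0.084, adjusted P = 0.0488) and Psmb7 fell by 0.27 (SE 0.0651, adjusted P = 0.00533) on the log2 scale at 6 weeks, and Psmb6 had -0.17 (SE 0.0695, adjusted P = 0.0855). The call of Psmb5 was lost without any 1 of 14 mice and in 10 of 11 other settings, whereas that of Psmb7 held without any 1 mouse. These directions depended on scaling: with library size only the values were 0.03 for Psmb5, 0.00 for Psmb7 and 0.10 for Psmb6, and in TPM all 3 were above 0.

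**Figure D4:**
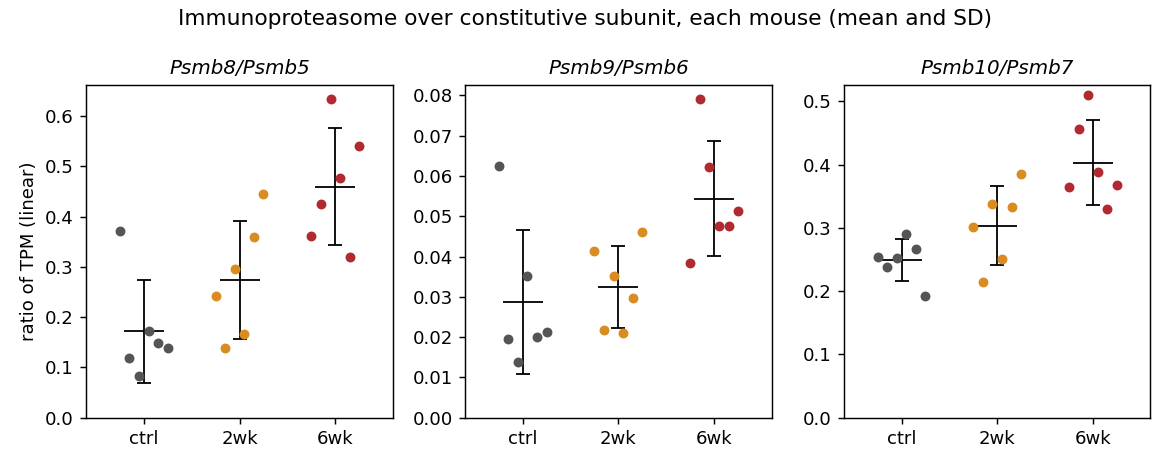
Ratio of TPM (linear axes) of each immunoproteasome subunit to the constitutive subunit it replaces, in each of 18 mice by group; the horizontal bar is the mean and the whisker the SD of 6 mice. For Psmb10 over Psmb7 the 6wk mice (0.33 to 0.51) lie above all controls (0.193 to 0.291), and for the other ratios control 1 lies within the 6wk range.

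Partner chains were compared in the same way. Tap1 over Tap2 was 0.133 to 0.365 in controls and 0.336 to 0.837 at 6 weeks, and the log2 ratio was 1.04 higher (exact permutation test, P = 0.00649, adjusted 0.039). H2-D1 over B2m had medians of 0.269, 0.26 and 0.232 in ctrl, 2wk and 6wk mice, and the log2 ratio at 6 weeks differed from controls by -0.17 (exact permutation test, P = 0.494, adjusted 0.555), with SDs of 0.434 to 0.62 in the groups. H2-K1 over B2m ranged from 0 to 0.0742 in controls and from 0.000635 to 0.0126 at 6 weeks, with a log2 difference of -1.67 (exact permutation test, P = 0.245, adjusted 0.367). The 3 ratios called at 6 weeks did not all hold when a mouse was left out: no ratio or 1 ratio was called without any 1 of control 2 to 6 or of 6wk mice 1, 2, 3, 4 and 6, a step that also raises the smallest P possible.

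Within groups, the same mice tended to be high or low for most of these genes. Control 1 was the highest control for 7 of the 10 (H2-D1, B2m, Tap1, Tap2, Psmb8, Psmb9 and Nlrc5), and control 3 was the lowest for the same 7. Of the 2wk mice, mouse 6 was the highest for 8 and mouse 2 the lowest for 7. Of the 6wk mice, mouse 5 was the lowest for 6. Control 1 also had the lowest mitochondrial share (19.8%, against 22.5% to 25.0% in the other controls) and the highest TMM factor (0.991) of its group, and its part in the comparisons is given by the values without it. The mean CPM of 6wk mice was above that of controls for 10 of 10 genes among mice with Y-linked expression and for 9 of 10 among those without, with 3 mice in each set.

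After the group mean was subtracted from log2 CPM, the 36 pairs of genes without H2-K1 had a median Pearson r of 0.629 over 18 mice (-0.0938 to 0.964). The highest was that of B2m with Nlrc5 (0.964), followed by Tap1 with Nlrc5 (0.922) and B2m with Tap1 (0.916). The 9 pairs with H2-K1 had a median of -0.0912 (-0.408 to 0.0576). Against all genes tested, the median r of the 10 genes was 0.00758, with 90% of values between -0.44 and 0.485. Points of these correlations share libraries and their scaling, and no P is given.

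Among the 5 other genes whose levels varied most like the mean of the 10 were Irgm2, H2-Q7, H2-Q6 and Irf9. Irgm2, an interferon-inducible GTPase, had r = 0.923 over 18 mice after group means were subtracted (Spearman's rho 0.858), and r = 0.893 without the 2 mice farthest from the median. Irf9, a DNA-binding factor of type I interferon signalling, had r = 0.867 (rho 0.825). H2-Q7 (0.878) and H2-Q6 (0.872) are class I heavy chain genes, of whose 31-base words 39.1% and 50.3% also occurred in other genes. At 6 weeks Irgm2 rose by 1.43 (SE 0.338, adjusted P = 0.00431) and Irf9 by 1.19 (SE 0.231, adjusted P = 0.000922) on the log2 scale, whereas H2-Q7 (0.99, adjusted P = 0.148) and H2-Q6 (1.14, adjusted P = 0.125) did not pass.

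The other genes of the pathway were taken from lists. Of 12 further class I heavy chain genes tested, of 18 listed, 2 rose at 6 weeks (16.7%, against 13.5% of all genes called higher). These were H2-Q4 (log2 fold change 0.92, adjusted P = 0.0493) and H2-M3 (0.56, adjusted P = 0.0427), and both calls were lost without single mice. The median of the 12 was 0.96. The values of H2-T22 (2.41, SE 1.36), H2-T23 (1.51, SE 0.797) and H2-T10 (1.48, SE 0.597) were the largest and did not pass (adjusted P = 0.216, 0.186 and 0.0791). Without control 3, H2-T22 had 6.20 (adjusted P = 0.0181) and H2-T23 had 2.49 (adjusted P = 0.0425), and both passed. Control 3 was the only control above the gap in counts given earlier, beside 3 mice of the 6wk group. Without it all remaining controls lay below that gap, whereas the 6wk mice lay on both sides. H2-T10 passed with library size only (1.74, adjusted P = 0.0285), with DESeq2 (1.52, adjusted P = 0.0441) and without mouse 4 of the 6wk group (1.68, adjusted P = 0.039). At 2 weeks H2-Q4 alone was called (1.2, adjusted P = 0.0421), 1 of 12 against 3.09% of all genes called higher. No gene of this list was called at 2 weeks with limma voom, under the replicate block or without any 1 of 7 mice.

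Of 8 genes of peptide loading and trimming, 1 rose and 1 fell at 6 weeks, against 13.5% of all genes called higher and 11.5% called lower. The median of the 8 was 0.15, and 5 were called higher with library size only and 7 in the TPM fits. Of all genes, 36.5% were called higher at 6 weeks with library size only and up to 48.9% in the TPM fits. Pdia3, the thiol oxidoreductase of the loading complex, rose from 64.8 to 85.9 mean CPM (log2 fold change 0.41, SE 0.0931, adjusted P = 0.00353), and its 6wk mice were all above controls. Abcb9, a lysosomal peptide transporter related to TAP, fell from 24 to 15.7 mean CPM (log2 fold change -0.61, SE 0.139, adjusted P = 0.00312), but had -0.18 in log2(TPM + 1) (limma, adjusted P = 0.229). Tapbpl, a tapasin relative, had 0.36 (SE 0.233, adjusted P = 0.294). Of 16 other subunits and assembly factors of the proteasome core, none rose and 2 fell (12.5%, against the same 11.5% of all genes), with a median of -0.13. With library size only 4 of the 16 were called higher and in the TPM fits 11, beside the same 36.5% and up to 48.9% of all genes, with none of the 16 called lower. The 2 that fell were Psma6 (-0.21, adjusted P = 0.0188) and Psmg2 (-0.24, adjusted P = 0.0425), both above 0 with library size only, and the call of Psmg2 was lost without any 1 of 11 mice. Psma2 (-0.53, adjusted P = 0.259) and Psmg3 (0.29, adjusted P = 0.0874) had the largest other values. Of the 3 subunits of the PA28 activator, Psme2 rose by 0.26 (adjusted P = 0.0451), a call lost without any 1 of 10 mice, with limma voom (adjusted P = 0.0604) and with no filter (adjusted P = 0.0659), and Psme1 (-0.09, adjusted P = 0.832) and Psme3 (-0.07, adjusted P = 0.516) did not pass.

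Of 16 transcription factors of class I genes, 7 rose and 1 fell at 6 weeks, against 13.5% of all genes called higher and 11.5% called lower. Their median log2 fold change was 0.25. Ciita, the transactivator of class II genes and a relative of Nlrc5, had 0.648 to 4.37 CPM in controls and 6.89 to 15.1 in 6wk mice (a difference of 1.96 in log2, SE 0.305, adjusted P = 0.000145). Irf8, an interferon regulatory factor of myeloid cells, had 4.53 to 9.50 and 18 to 25.4 (1.61, SE 0.167, adjusted P = 3.12e-06). For both genes the groups did not overlap. The gene that fell was Nfyc, a subunit of the CCAAT-binding factor (-0.26, adjusted P = 0.00261), which was at 0.01 with library size only. At 2 weeks 4 of the 16 rose, among them Ciita, Irf8 and Irf9. That count was 1 to 5 without single mice, 2 under the replicate block, 8 with library size only and 10 to 11 in the TPM fits. Of all genes, 3.09% were called higher at 2 weeks in the reported fit and 2.37% under the block. With library size only it was 11.3%, and in the TPM fits 18.4% and 19.9%.

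Of 9 genes of interferon receptors and signalling, 5 rose and 1 fell at 6 weeks, against 13.5% of all genes called higher and 11.5% called lower. The median of the 9 was 0.36. Socs3 (1.0, adjusted P = 0.000198) and Socs1 (0.86, adjusted P = 0.0188), both feedback inhibitors of JAK and STAT signalling, and Ifnar1 (0.48, adjusted P = 0.000402), a type I interferon receptor chain, rose, as did Ifnar2 and Tyk2. Ifngr2, a chain of the interferon gamma receptor, fell (-0.33, adjusted P = 0.000244), with -0.06 under library size only. The ligands Ifng and Ifnb1 had at most 1 count in any mouse and were not tested. Of 9 listed receptors of class I or class I-like molecules on lymphocytes and myeloid cells, 3 could be tested. All 3 rose at 6 weeks, against 13.5% of all genes: Klrk1 (2.43, SE 0.663, adjusted P = 0.00705), Cd8a (1.74, SE 0.585, adjusted P = 0.0323) and Pirb (1.66, SE 0.252, adjusted P = 0.000118). Klrk1 and Cd8a were near the floor, with highest values of 1.05 and 0.902 CPM, and 1 to 3 of the 3 were called without single mice.

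Markers of immune cells moved in the same comparison as the 10 genes. Of all genes, 13.5% were called higher at 6 weeks and 11.5% lower, and each count of markers below stands against these shares. Of 8 macrophage and myeloid markers, 7 rose at 6 weeks, and their summed level was 134 to 422 CPM in controls, 270 to 359 at 2 weeks and 388 to 536 at 6 weeks. Ptprc, the pan-leukocyte marker CD45, rose by 1.97 (adjusted P = 1.36e-05). Of 5 dendritic cell markers, 3 rose, among them Itgax (3.92, adjusted P = 0.000162) and Flt3 (2.27, adjusted P = 0.00684). In controls these 2 were near the floor, with means of 0.315 and 0.130 CPM. The sum of the 5 was 33.1 to 41.0 CPM in controls and 39.1 to 53.4 at 6 weeks. Most of it was Zbtb46, with mean CPM of 31.3 and 32.1. Zbtb46 (0.04) and Clec9a (0.21) did not pass. Lymphocyte markers were also near the floor. Of 3 T cell markers tested 1 rose (Lck, 2.33, adjusted P = 0.000639), with sums of 0.278 to 1.43 CPM in controls and 1.07 to 2.09 at 6 weeks. Both NK cell markers tested rose (Nkg7 by 3.04, adjusted P = 0.000373), with sums of 0.0756 to 0.486 and 0.89 to 2.63 CPM. Of 3 B cell markers 2 rose (Cd79b by 1.79, adjusted P = 0.00494, and Cd79a), with sums of 0.416 to 0.716 and 1.13 to 2.4 CPM. Cd3d, Cd3g, Trac, Ncr1, Klrb1c, Ms4a1 and Pax5 had at most 9 counts in any mouse.

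The fall of cardiomyocyte markers at 6 weeks depended on scaling. With TMM all 6 fell, against 11.5% of all genes, among them Actc1 (-0.61, adjusted P = 0.000292) and Myh6 (-0.46, adjusted P = 0.0259). Their sum was 28122 to 42107 CPM in controls and 22283 to 29728 at 6 weeks. With library size only 2 of the 6 were called lower and in the TPM fits 1, with 4 under the replicate block and 3 to 6 without single mice. Myh6 had -0.19 with library size only (adjusted P = 0.248) and -0.11 in log2(TPM + 1) (limma, adjusted P = 0.516), where Actc1 had -0.21 (adjusted P = 0.0737). Of 6 endothelial markers 2 rose and 2 fell, against 13.5% and 11.5% of all genes. Pecam1 (0.90, adjusted P = 9.83e-07) and Cdh5 (0.53, adjusted P = 0.000197) rose, and Tek (-0.75, adjusted P = 2.24e-05) and Tie1 (-0.44, adjusted P = 0.000384) fell. Kdr (0.00) and Emcn (0.07) did not pass. With library size only 4 were called higher, beside 36.5% of all genes, and 1 lower. The sum of the 6 was 743 to 916 CPM in controls and 882 to 1199 at 6 weeks. Of 6 fibroblast markers 2 fell, against the same 11.5% of all genes, with Pdgfra at -0.88 (adjusted P = 8.43e-05). The sum of the fibroblast markers was 2327 to 4246 CPM in controls and 1841 to 2766 at 6 weeks. Within groups, over 18 mice, the mean of the 10 genes had r = 0.468 (rho 0.505) with the summed macrophage markers, r = 0.567 (rho 0.628) with B cell markers, which lie near the floor, and r = -0.571 (rho -0.577) with cardiomyocyte markers. Without the 2 mice farthest from the median, these were 0.297, 0.619 and -0.413. For the other lists r was 0.465 (T cells), 0.46 (NK cells), 0.229 (dendritic cells), 0.107 (endothelial cells) and 0.106 (fibroblasts). The part of cell numbers in the rise of the 10 genes was not tested.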

How the data were processed

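Paired-end RNA-seq was done on 18 single hearts, 1 library per mouse. The authors aligned reads to GRCm38 with STAR, estimated transcript abundance in Salmon 1.0 and collapsed it to gene level through tximport. The deposited estimated counts are not scaled between mice. TPM values deposited by the authors stem from that Salmon run and served for ratios, level order and alternatives. Neither table is corrected for the haplotypes of these outbred mice.

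Estimated counts were rounded. Genes at 0.23 CPM or more in 6 mice or more entered the fit (15054 genes). After TMM scaling, the 3 groups were fitted together in edgeR 4.0.16 (R 4.3.3, quasi-likelihood F test, legacy = FALSE, two-sided), with Benjamini-Hochberg adjustment over all genes tested in each comparison. Calls are at an adjusted P under 0.05. CPM values are TMM-normalised, and log2 CPM for correlations used a prior count of 2. An SE is the absolute log2 fold change divided by the square root of F. The mean log2 TPM ratio, with 0.1 TPM added to both genes since H2-K1 is at 0 in 1 mouse, was compared by exact permutation tests, adjusted over 6 ratios and 3 comparisons. The code was tested on simulated data.

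The members, gene lists and motifs were chosen with earlier results of these data known. Genes named are the 10 members, Psmb5, Psmb6 and Psmb7, up to 3 genes per pathway list with the largest absolute log2 fold change at 6 weeks, the first and the largest-moving gene of each marker list, and the 5 genes most alike; 2 genes that this rule names are not reported here. Names outside this rule (H2-Q4, H2-M3, H2-T24, Psma6, Nfyc, Ifnar2, Tyk2, Ifngr2, Cd79a, Zbtb46, Clec9a, Cdh5, Tek, Tie1, Kdr, Emcn and the markers and ligands at low counts) were chosen after their values were seen. Symbols were found for 29301 of 30072 genes. Alternatives were DESeq2 1.42.0, limma 3.58.1 voom with sample quality weights, scaling by upper quartile or by library size only, removal of mitochondrial transcripts, 2 other filters, limma on log2(TPM + 1) and log2(TPM + 0.1), Y-linked expression as covariate, the replicate number as a block and leaving out each mouse.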

Additional observations from a re-analysis of the deposited data

Results flagged for a closer look

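Across 48 group values checked (10 genes and 6 ratios in 3 groups), 3 had a mouse far from the other 5 by Dixon's criterion, which chance reaches in about 1 of 20 groups. Control 2 had 30 CPM of H2-K1, against 0 to 10.2 in the other controls. Control 1 had a Psmb8 over Psmb5 TPM ratio of 0.371, against 0.0822 to 0.172 in the other controls. Control 3 had an H2-D1 over B2m TPM ratio of 0.126, against 0.247 to 0.318 in the others. The log2 ratio of Psmb9 over Psmb6 differed between the time points after irradiation, by 0.76 (exact permutation test, adjusted 0.0487), and that call was lost in the alternatives given under the dependence on processing.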

How the results depend on the processing

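The 7 genes called higher at 6 weeks numbered 6 to 9 over 11 alternative settings and 6 to 8 without any 1 mouse. The 9 came with library size only and the TPM fits, in which 36.5% and up to 48.9% of all genes were called higher. None was called from 2 to 6 weeks in any setting. At 2 weeks 1 gene was called in the TPM fits (Nlrc5), in which 18.4% and 19.9% of all genes were called higher, and 0 to 1 without single mice. The replicate number as a block left 6 calls at 6 weeks (Nlrc5 lost, adjusted P = 0.0686). Same-numbered mice of 18 pairs correlated between -0.0828 and 0.106, with 2 pairs above 0.1, against a median of -0.0154 for other numbers. Of the 18 mice, 3 correlated best with their own number. Such values cannot decide whether the numbers pair the mice. In every group mice 1 to 3 lacked Y-linked expression and mice 4 to 6 had it, so the block also carries that difference.

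Of the 6 ratios, 3 were called at 6 weeks against controls, with 0 to 4 without single mice, 0 under the block (where P cannot go below 0.0312) and 1 with a pseudocount of 1 TPM, chosen after seeing the data. From 2 to 6 weeks 1 ratio was called, with 0 to 4 without single mice and 0 with CPM, under the block and with 1 TPM.

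Directions turned in some settings, also for genes called in the reported fit. Leaving out single mice, Tap2 at 2 weeks ranged from -0.06 (without 2wk mouse 6) to 0.29. H2-K1 at 6 weeks had 0.05 in log2(TPM + 0.1) and ranged from -1.27 to 0.08 (without control 2) when mice were left out. H2-D1 over B2m had 0.12 with CPM, 0.00 without control 5 and 0.16 without 2wk mouse 1 at 2 weeks (lowest -0.26), and 0.02 without 2wk mouse 4 and 0.07 without 6wk mouse 2 from 2 to 6 weeks (lowest -0.33). At 6 weeks, with library size only, Psmb5 had 0.03, Psmb6 0.10, Psme1 0.19, Psme3 0.20, Psmg2 0.02, Psma6 0.06 and Nfyc 0.01. In the TPM fits with pseudocounts 1 and 0.1, Psmb5 had 0.15 and 0.16, Psmb6 0.23 in both, Psmb7 0.14 and 0.15, Psme1 0.28 in both, Psme3 0.29 and 0.30, Psmg2 0.15 and 0.16, Psma6 0.21 in both, Nfyc 0.13 and 0.14, and Ifngr2 0.04 in both. Psme1 had 0.04, 0.01 and 0.02 without control 3, control 6 and 6wk mouse 5, with a lowest value of -0.20. Library size alone moved the median of all genes by 0.26 at 6 weeks and 0.15 at 2 weeks, and the TPM fits by 0.30 and 0.39 at 6 weeks. The cause of the other changes was not tested. With 6 mice a group, SEs of 0.12 to 0.86 limit what can be called.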
